A study of Mus musculus with 6 samples.

Results

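The subject is a set of 9 mouse genes that carry or make the retinoic acid signal, measured in cardiomyocytes that lost the Hippo effector Yap. Among the 19938 genes that had a probe set with 1 gene symbol, the 9 are the retinoid X receptor genes Rxra, Rxrb and Rxrg, the retinoic acid receptor genes Rara, Rarb and Rarg, the retinaldehyde dehydrogenase genes Aldh1a1 and Aldh1a2, and the binding protein gene Crabp2. The genes were picked by name with earlier results of these arrays known, so the values below describe them and are not independent evidence. A gene with several probe sets would have been represented by the probe set chosen by the highest mean over the 6 arrays, but each of the 9 genes had 1 probe set.

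Retinoic acid is made from vitamin A by dehydrogenation of retinol and then of retinaldehyde. It enters the nucleus with the help of a cellular binding protein and binds a retinoic acid receptor (RAR), which sits on DNA as a dimer with a retinoid X receptor (RXR). RXRs also pair with other nuclear receptors, such as those for thyroid hormone, vitamin D and fatty acids. In the embryonic mouse heart, Rxra is required for growth of the compact ventricular wall, and the epicardium is a known source of retinoic acid through Aldh1a2.

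RNA came from hearts of E12.5 embryos bred from TNTCre, Yap flox and R26 mTmG strains, in which Cre under the cardiac troponin T promoter deletes the floxed gene and turns the cell green. Green cells were sorted, and biotin-labelled RNA was hybridised to Affymetrix arrays. The 3 control arrays came from Yap HET embryos (TNTcreYapfl_het), and the 3 others from Yap KO embryos (TNTcreYapfl_KO). Both groups thus carry Cre, floxed Yap and the reporter and the design text calls the replicates biological. Hearts were digested one by one, and whether arrays shared a litter or whether sorted cells were pooled before hybridisation was not stated in the labels.

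Yap1 itself read 886, 927 and 871 in Yap HET cells, against 103, 84.7 and 86.6 in Yap KO cells, which matches the labels. All 17 cardiomyocyte markers examined were above the level under which dim probe sets were left out, an intensity of 85.7, and 1 of the 17, Nppa, was called. Median intensity per array lay between 128 and 140. Here a call means a limma adjusted p under 0.05 over 13632 tested genes, a log2 change is the Yap KO level minus that of Yap HET, given with its standard error (SE), and means carry the SD of 3 arrays. By that rule, 5.16% of all tested genes were called higher and 4.76% lower. Because the material was bulk RNA, fewer cells of a type and less RNA per cell cannot be told apart.

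Rxrg was higher in Yap KO cells by 2.59-fold and was the 1 member called, while the other 8 members did not pass the test. RXR genes thus had unlike values: Rxrg rose, Rxra read lower on all Yap KO arrays without passing, and Rxrb overlapped between the groups. Of the 9 members, all of which were bright enough to be tested, 1 was called higher, against 5.16% of all tested genes, and 0 were called lower, against 4.76% of all tested genes. At an unadjusted limma p under 0.05, 2 were higher and 2 lower, where 13.9% of all tested genes were higher and 14.4% lower. Their median log2 change was 0.09, beside -0.02 for all tested genes. Nothing about the set as a whole can be read from these counts, since the genes were picked with the comparison known.

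Start-site windows from RefSeq, build GRCm38.p6, are shown for the member that was called and for Rarb, a textbook retinoic acid target. Each window runs from 250 bases before to 50 bases after an annotated start, in the direction of the gene. Capitals mark matches on either strand to core letters that nuclear receptors bind (AGGTCA, its variant GGGTCA, and the related AGTTCA or the related GGTTCA), or to GGAATG, which TEAD factors, the DNA-binding partners of Yap, bind. Rxrg has 2 windows, at chr1:167598112-167598411 and chr1:167618015-167618314, both on the plus strand, and Rarb has 1, at chr14:16575427-16575726 on the minus strand.
Rxrg, start 1: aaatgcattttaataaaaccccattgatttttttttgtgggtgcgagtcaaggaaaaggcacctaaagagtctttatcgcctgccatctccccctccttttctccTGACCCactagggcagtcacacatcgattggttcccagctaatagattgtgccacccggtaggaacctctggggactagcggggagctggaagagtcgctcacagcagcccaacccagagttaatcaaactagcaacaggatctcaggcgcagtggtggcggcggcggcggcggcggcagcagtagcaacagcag
Rxrg, start 2: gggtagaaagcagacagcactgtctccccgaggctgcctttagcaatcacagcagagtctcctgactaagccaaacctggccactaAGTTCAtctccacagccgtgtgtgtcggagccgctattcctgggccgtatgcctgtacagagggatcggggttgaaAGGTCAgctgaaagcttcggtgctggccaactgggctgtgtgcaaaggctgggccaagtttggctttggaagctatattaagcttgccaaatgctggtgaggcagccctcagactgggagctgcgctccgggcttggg
Rarb: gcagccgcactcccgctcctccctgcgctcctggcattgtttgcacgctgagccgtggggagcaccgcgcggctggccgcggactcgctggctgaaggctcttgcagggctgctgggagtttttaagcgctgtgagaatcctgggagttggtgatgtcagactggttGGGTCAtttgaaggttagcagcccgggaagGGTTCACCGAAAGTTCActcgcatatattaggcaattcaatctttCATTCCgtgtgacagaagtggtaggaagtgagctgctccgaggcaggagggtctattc

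The Rarb window holds 3 receptor cores, 2 of them in direct repeat with 5 bases between them, 53 to 37 bases upstream of the start, the arrangement that RAR-RXR dimers are known to bind. This arrangement occurred in 0.1% of the 32851 windows of all genes. The window also has 1 TEAD core, on the opposite strand, a match found in 14.66% of all windows. The Rxrg windows hold 1 and 2 receptor cores, a match found in 43.71% of all windows, with no direct repeat spaced by 1, 2 or 5 bases and no TEAD core. These letters are a description of the windows, and sites elsewhere in the genes were not analysed here. Windows were found for 8 of the 9 members.

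Rxrg encodes the retinoid X receptor that in adult mice is best known from skeletal muscle and the nervous system. Its probe set read 75.2, 113 and 97.7 in Yap HET cells, against 255, 274 and 206 in Yap KO cells. Every Yap KO value was above every Yap HET value. The means were 95.4 ± 19.1 and 245 ± 35.4 (SD, n = 3 each), or 1.37 ± 0.16 on the log2 scale (SE, limma adjusted p = 0.0035). Yap HET replicate 1 lay under the level of 85.7, so the dim side may be near background and the fold may be understated. Among the 13632 tested genes it ranked 5 from the top by signed change, and 8 by size in either direction. Leaving out each array in turn gave log2 changes from 1.21 to 1.50, with limma adjusted p from 0.0036 to 0.019. With a linear model that does not share the spread between genes, the adjusted p was 0.067, and a filter at the 60th percentile of probe set means left the gene out.

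Rxra encodes the main retinoid X receptor of the developing heart. It read 633, 679 and 595 in Yap HET cells, against 587, 517 and 535 in Yap KO cells. The Yap KO values were all lower, with replicate 1 of the Yap KO group just below the lowest Yap HET array. The log2 change was -0.22 ± 0.07, with a 95% interval from -0.38 to -0.05, and the limma adjusted p of 0.095 missed the threshold. Under quantile normalization, median centring and cyclic loess the adjusted p was 0.039, 0.043 and 0.038, and with the scaling unchanged it was 0.037 under a trended and robust prior and 0.0086 with array weights. The call was absent in the other 11 of 16 alternatives. Rxra and Crabp2 were the 2 members whose Yap KO values all lay below the Yap HET values, as did 17.2% of tested genes, and Rxrg was the 1 member with all above, as did 16.7%.

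Rxrb encodes the third RXR, which is widely expressed. It read 386, 409 and 379 in Yap HET cells, against 397, 384 and 359 in Yap KO cells. The groups overlapped, with a log2 change of -0.04 ± 0.06 (95% interval -0.18 to 0.09, limma adjusted p = 0.68).

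**Figure D1:**
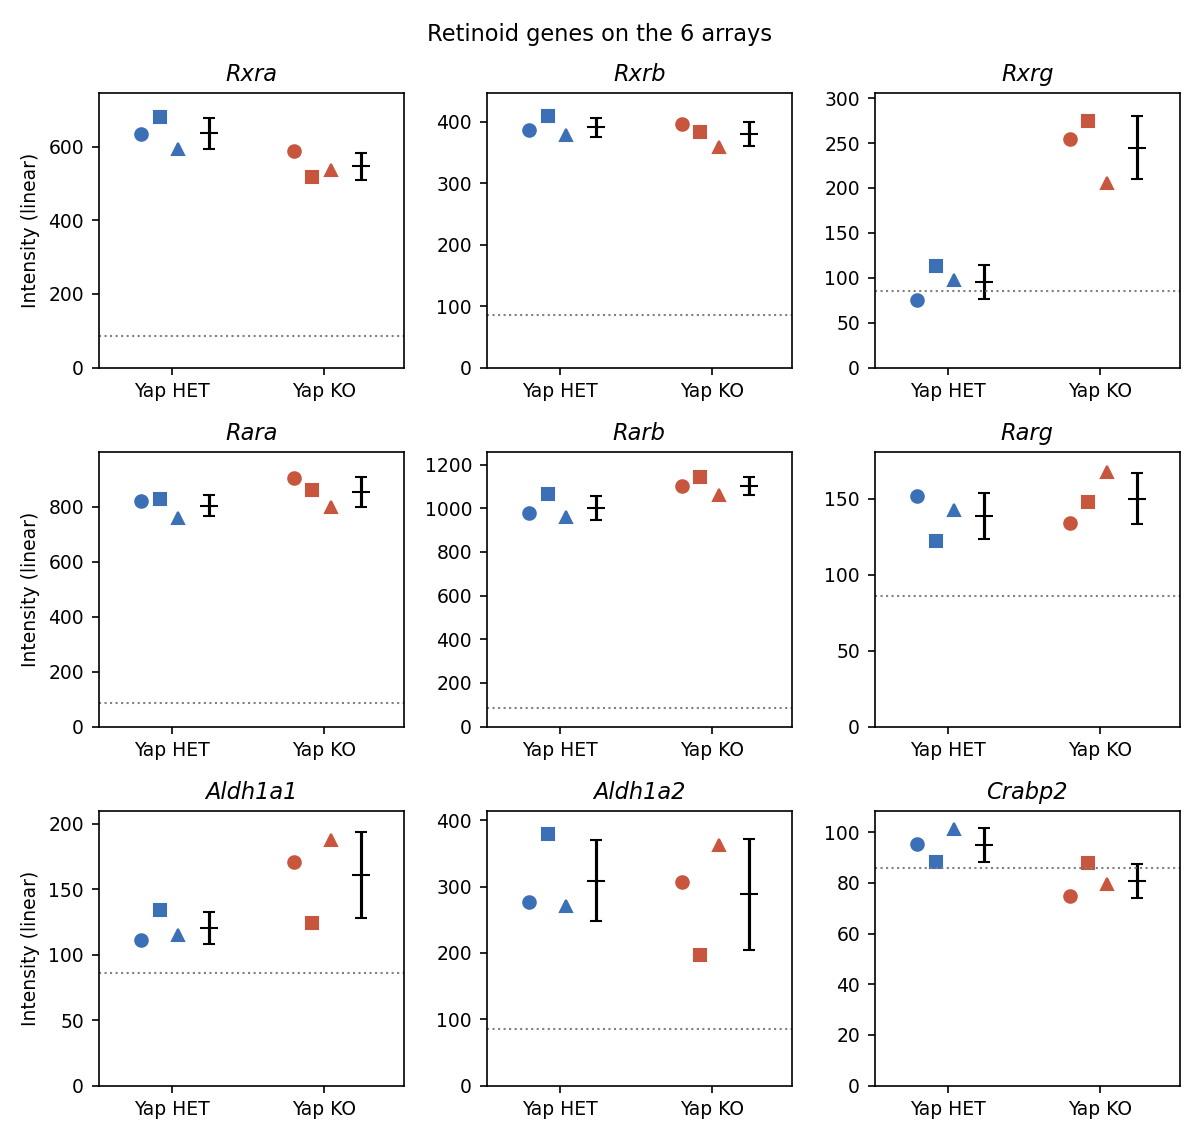
Intensity on a linear scale of each of the 9 retinoid genes on the 3 Yap HET arrays (blue) and 3 Yap KO arrays (red), with circle, square and triangle for replicates 1, 2 and 3, black bars for the mean and SD, and a dotted line at the level of 85.7. The Rxrg values are 75.2 to 113 in Yap HET and 206 to 274 in Yap KO cells, whereas the groups of Rxrb, Rara, Rarb, Rarg, Aldh1a1 and Aldh1a2 overlap.

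Rara encodes a retinoic acid receptor found in most tissues. It read 822, 828 and 760 in Yap HET cells, against 904, 860 and 797 in Yap KO cells. The lowest Yap KO array fell within the Yap HET range, and the log2 change of 0.09 ± 0.07 did not pass (95% interval -0.06 to 0.24, limma adjusted p = 0.42).

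Rarb encodes a receptor that is itself induced by retinoic acid, and its window is printed above. It read 979, 1065 and 959 in Yap HET cells, against 1101, 1143 and 1059 in Yap KO cells. Only Yap HET replicate 2 reached into the Yap KO range, and the log2 change was 0.14 ± 0.06 (95% interval -0.00044 to 0.28, limma adjusted p = 0.18). The interval leaves room for a rise of up to 0.28 on the log2 scale, and with array weights the adjusted p was 0.018.

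Rarg encodes the receptor best known from skin and cartilage. It read 152, 122 and 143 in Yap HET cells, against 134, 148 and 168 in Yap KO cells. These overlapped widely, with a log2 change of 0.11 ± 0.10 (95% interval -0.13 to 0.35, limma adjusted p = 0.52). For all 3 RAR genes the intervals included 0.

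**Figure D2:**
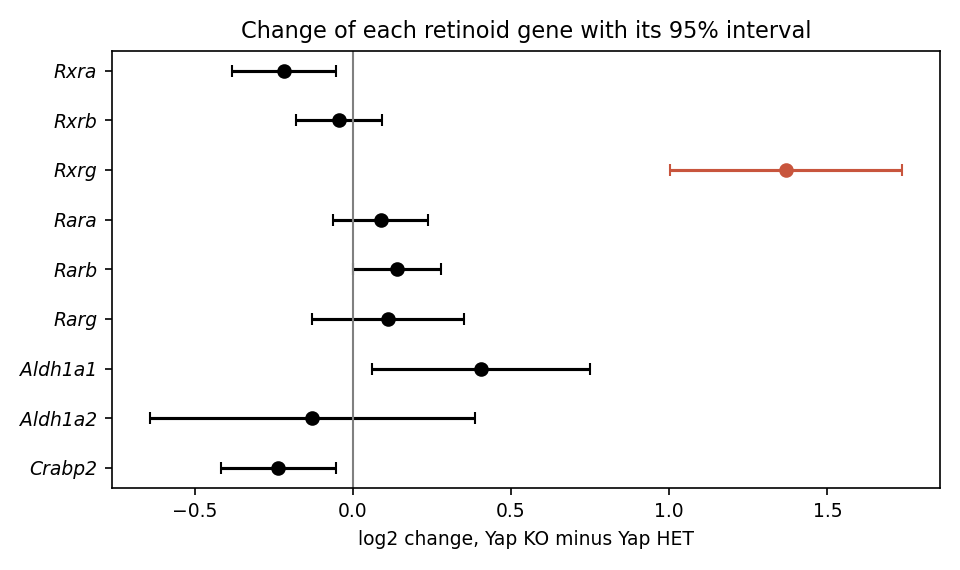
Log2 change (Yap KO minus Yap HET, horizontal axis) of each retinoid gene with its 95% interval from limma, with the called gene in red and genes that were not called in black. Rxrg stands at 1.37, and the other 8 genes lie between -0.24 and 0.40.

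Aldh1a1 and Aldh1a2 encode enzymes of the last step of retinoic acid synthesis, of which Aldh1a2 is the main one in the early mouse embryo. Aldh1a1 read 111, 134 and 115 in Yap HET cells, against 171, 124 and 188 in Yap KO cells. Yap KO replicates 1 and 3 were above all Yap HET arrays, and Yap KO replicate 2 fell within their range. Over all arrays the log2 change was 0.40 ± 0.15 (95% interval 0.06 to 0.75, limma adjusted p = 0.12). Without Yap KO replicate 2 the log2 change was 0.58 with a limma adjusted p of 0.032. With all arrays kept and array weights it was 0.42, also with an adjusted p of 0.032, and the other alternatives gave no call.

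Aldh1a2 varied more between arrays of a group than between the groups. It read 277, 379 and 271 in Yap HET cells, against 306, 196 and 362 in Yap KO cells. The highest and the lowest array were Yap HET replicate 2 and Yap KO replicate 2, and the groups overlapped. The means were 309 ± 60.5 and 288 ± 84.2, a log2 change of -0.13 ± 0.22 (95% interval -0.64 to 0.39, limma adjusted p = 0.75). Its sign turned when the highest array, Yap HET replicate 2, was left out (0.03), and likewise for the lowest, Yap KO replicate 2 (0.13).

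Aldh1a2 shared its array pattern with some epicardial genes and not with others. By root mean square difference of log2 values, each centred on its own mean over the 6 arrays, the 4 tested genes most like Aldh1a2 were Dcn (0.11), Lrrn4 (0.11), Apela (0.11) and Tex26 (0.16). The median of that difference over all tested genes was 0.32. Dcn encodes the proteoglycan decorin, and Lrrn4 is the 1 of the 4 on the epicardial marker list. Lrrn4 was chosen for likeness to Aldh1a2, so a shared pattern follows from that choice. It read 278, 415 and 305 in Yap HET cells, against 290, 194 and 324 in Yap KO cells. It was thus highest on Yap HET replicate 2 and lowest on Yap KO replicate 2, as Aldh1a2 was. So were 7 of 16 tested epicardial markers (43.8%) and 7.5% of all tested genes, a pattern counted after the values were seen. Of the 20 tested coregulators, 4 (20.0%) had it too. The other 9 tested epicardial markers lacked it, among them Tcf21, which was highest on Yap KO replicate 3 and lowest on Yap HET replicate 3. The 7 with the pattern included Upk3b and Upk1b, genes of uroplakins, and Bnc1, a transcription factor gene.

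Summed over all 18 epicardial markers, of which 2 had means under the level of 85.7 and none read 0, the intensity was 8046 to 9066 in Yap HET cells, against 6876 to 7818 in Yap KO cells. Without Tcf21 the sums were 7836 to 8790 and 6521 to 7376. Tcf21 was higher in Yap KO cells, so leaving it out cannot show whether the lower sums rest on 1 gene. Upk3b, with means of 1268 and 809, was not left out. The highest sum over all 18 was again on Yap HET replicate 2 and the lowest on Yap KO replicate 2. Of the 16 tested, 1 rose, the transcription factor gene Tcf21 (log2 change 0.93 ± 0.17, limma adjusted p = 0.015), and 0 fell. Among all tested genes, 5.16% were called higher and 4.76% lower. By unadjusted limma p under 0.05, 7 of the 16 were lower, beside 14.4% of all tested genes. Upk3b (-0.68 ± 0.19), Krt7 (-0.48 ± 0.14) and Msln (-0.30 ± 0.09) had the smallest p-values after Tcf21. How much of the Aldh1a2 signal came from epicardial cells in the sorted material was not tested.

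**Figure D3:**
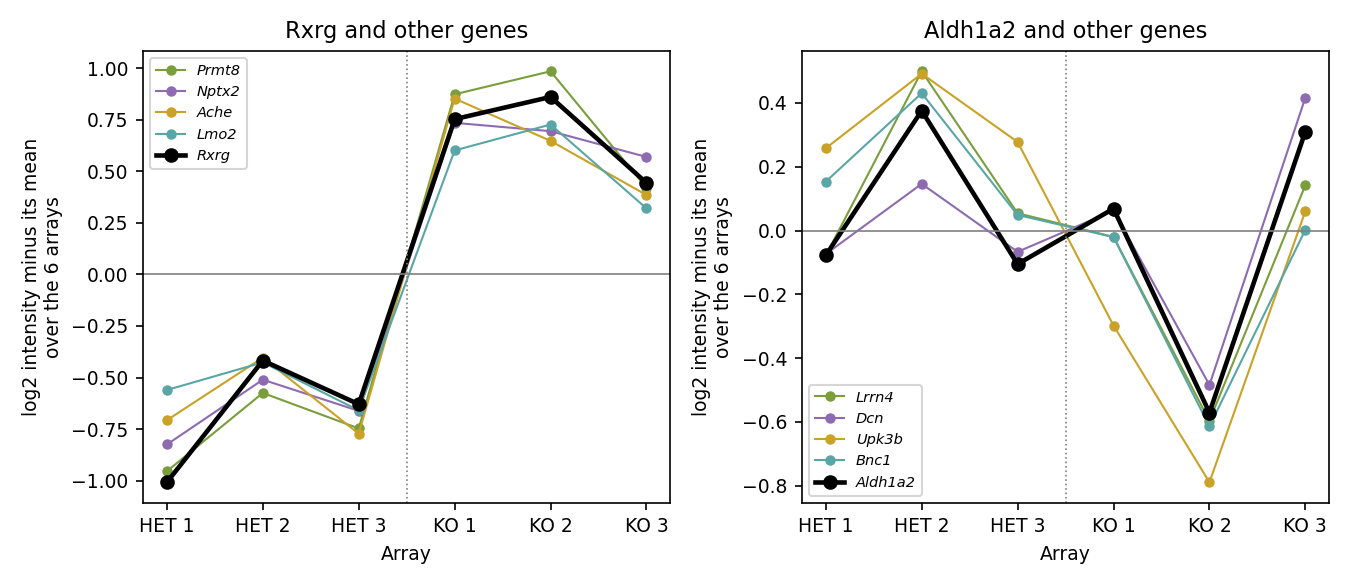
Log2 intensity minus its mean over the 6 arrays (vertical axis) on each array (horizontal axis, replicates within a group have no order) for Rxrg with the 4 genes most like it (left) and for Aldh1a2 with Lrrn4, Dcn, Upk3b and Bnc1 (right). Rxrg steps between the groups, while Aldh1a2 is highest on Yap HET replicate 2 and lowest on Yap KO replicate 2. The genes on the right were picked after their values were seen, and 9 of 16 tested epicardial markers lack that pattern.

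Genes most like Rxrg by the same measure were Prmt8, which encodes an arginine methyltransferase of neurons (0.11), Nptx2, which encodes a neuronal pentraxin (0.12), Ache, the gene of acetylcholinesterase (0.17), and Lmo2, a transcription cofactor gene of blood and vessel precursors (0.21). The median over all tested genes was 0.73. Prmt8 read 53.7, 69.8 and 62.0 in Yap HET cells, against 190, 206 and 139 in Yap KO cells. Every Yap HET value of Prmt8 lay under the level of 85.7, so the gene passed that filter by its Yap KO values. Its Yap HET values may be near background, which limits what their order and the size of the change can show. Like Rxrg, Prmt8 was lowest on Yap HET replicate 1 and, within the Yap KO group, highest on replicate 2 and lowest on replicate 3. Lmo2 had 319, 350 and 298 against 713, 778 and 587, also without overlap. These genes were chosen for likeness to Rxrg, so the shared order and the lack of overlap follow from that choice.

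Genes of other cell types differed between the groups as well, with sums that often rested on 1 gene. Sums are over all markers of a type with a probe set. Those that did not overlap between the groups are given again without the gene of the smallest p, a choice made after the data were seen. Mesenchymal and pericyte markers (18 genes) summed to 25162 to 26404 in Yap HET cells, against 26638 to 27637 in Yap KO cells. Of the 18 tested, 5 rose and 0 fell, where 5.16% of all tested genes were called higher and 4.76% lower. The log2 changes included 0.98 for Pdgfra, 0.73 for Pdgfrb, 0.72 for Postn and 0.39 for Sox9. All Yap KO values lay above all Yap HET values for 7 and below for 2, Tagln (-0.46) and Acta2 (-0.15). Of all tested genes, 16.7% lay above and 17.2% below. Without Pdgfra the sums overlapped (24800 to 26088 and 25978 to 26860).

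Endothelial and endocardial markers (16 genes) summed to 2737 to 2848 and 2908 to 3102, and overlapped without Kdr, the gene of a growth factor receptor (2498 to 2623 and 2508 to 2715). Of the 14 tested, 3 rose and 2 fell, among them Kdr (0.76), Eng (0.52), Ecscr (-0.46) and Npr3 (-0.34). For this and the next lists, the shares of all tested genes were 5.16% called higher and 4.76% lower. Neural and neural crest markers (15 genes) summed to 2052 to 2202 and 2255 to 2354, and overlapped without Snap25, the 1 rise among 8 tested (1846 to 2033 and 1921 to 2037). Myeloid markers (16 genes) overlapped at 2359 to 2646 and 2480 to 2707. Of 8 tested, H2-Ab1 (1.19) and Lyz2 (0.47) were the 2 called rises, and 0 were called lower. At an unadjusted limma p under 0.05, 2 were higher and 3 lower, beside 13.9% and 14.4% of all tested genes. The lower ones were led by Cd68 (-0.72) and Ptprc (-0.17), so the list did not move in 1 direction. Erythroid markers (7 genes) overlapped at 1301 to 1612 and 1456 to 3783. Of 5 tested, 0 were called, yet Hbb-y (2.89) and Hba-x (1.99) ranked 1 and 2 by signed change among all tested genes. Both overlapped between the groups and were highest on Yap KO replicate 1 (1295 and 822). On Yap HET replicate 1 they read 232 and 166. On Yap HET replicates 2 and 3, Hbb-y read 27.1 and 19.8 and Hba-x 41.1 and 32.1, all under the level of 85.7. Hba-x was also under that level on Yap KO replicate 3 (73.4). Such values may be near background, which limits what the size and rank of these 2 changes can show.

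Atrial markers (17 genes) summed to 40300 to 41814 and 42098 to 43540. Of the 17, 3 rose and 1 fell, led by Tbx3 (0.47), Dkk3 (0.29), Nr2f1 (-0.29) and Nppa (0.19). Of all tested genes, 5.16% were called higher and 4.76% lower. The sums did not overlap without Tbx3 either (39706 to 41179 and 41246 to 42687). Tbx3 is a small part of them (means 624 and 866), and Nppa is a larger part (means 8048 and 9200). The lowest Yap KO sum (42098, replicate 3) lay just above the highest Yap HET sum (41814, also replicate 3). Nppa read 8849 and 8010 on those arrays, a wider gap than that between the sums. The lack of overlap in the atrial sums thus depends on Nppa. Ventricular markers (12 genes) summed to 46148 to 47537 and 47820 to 49207, and overlapped without Irx5 (45860 to 47205 and 47122 to 48563). Of the 12, 4 rose and 1 fell. The rises were Irx5 (1.07), Kcne1 (0.49), Irx3 (0.63) and Mpped2 (0.38), and the fall was Hey2 (-0.53). Cardiomyocyte markers (17 genes) overlapped at 118925 to 120702 and 118210 to 121198. No marker read 0. The part of these cell types in the Rxrg value was not tested.

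Crabp2 encodes the binding protein that hands retinoic acid to RARs. It read 95.4, 88.1 and 101 in Yap HET cells, against 74.7, 87.8 and 79.5 in Yap KO cells. The groups did not overlap, but Yap KO replicate 2 and Yap HET replicate 2 read nearly alike, and 2 of the 3 Yap KO arrays lay under the level of 85.7. The log2 change was -0.24 ± 0.08 (95% interval -0.42 to -0.05, limma adjusted p = 0.098). The mean over the 6 arrays was 87.3, close to that level, so the difference cannot be told from one between values near background.

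Beyond the 9 members, genes that carry, store, make or break down retinoids showed rises in Rbp4 and Rdh14. Of 36 such genes listed, 34 had a probe set, 18 were bright enough to be tested, 2 were called higher and 0 lower. At an unadjusted limma p under 0.05, 3 were higher and 3 lower. Over all tested genes the shares were 5.16% and 4.76% called, and 13.9% and 14.4% by unadjusted p, so these counts are near the background. Rbp4 encodes the blood carrier of retinol. It read 168, 184 and 178 in Yap HET cells, against 307, 332 and 240 in Yap KO cells. All Yap KO values were higher, with a log2 change of 0.72 ± 0.11 (limma adjusted p = 0.010). Rdh14 encodes a retinol dehydrogenase family enzyme and went from 313, 316 and 258 to 371, 418 and 402 (0.43 ± 0.09, limma adjusted p = 0.026). This call ended when Yap HET replicate 1 or either of Yap KO replicates 2 and 3 was left out. Rdh5 (-0.25 ± 0.08) and Rdh13 (-0.13 ± 0.05), of the same family, had adjusted p-values of 0.088 and 0.12. The median log2 change of the 18 genes was -0.04.

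Enzymes and feedback genes around retinoic acid itself were chosen for mention after their values were seen. Rdh10, which makes retinaldehyde in the embryo, read 225 to 238 in Yap HET cells, against 212 to 243 in Yap KO cells. Dhrs3, which reduces retinaldehyde and is induced by retinoic acid, read 273 to 337 and 266 to 302. Stra6, the retinol uptake receptor, read 150 to 182 and 146 to 160. None of these 3 was called. The degrading enzymes Cyp26a1 (22.4 to 22.9 and 18.4 to 30.0) and Cyp26b1 (79.1 to 84.3 and 71.9 to 80.0) had means under the level of 85.7 and were not tested.

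Among coregulators that receptors recruit, Tbl1xr1 and Tacc1 rose. Of 23 listed, 20 were tested, 2 were called higher and 0 lower, with 3 higher and 2 lower at an unadjusted limma p under 0.05. Beside the shares of all tested genes (5.16% and 4.76% called, 13.9% and 14.4% by unadjusted p), these counts are near the background. All Yap KO values lay above all Yap HET values for 3 of the 20 and below for 7. Of all tested genes, 16.7% lay above and 17.2% below, so the count below exceeded that share. Tbl1xr1, a corepressor complex subunit gene, rose from 762 ± 37.7 to 914 ± 8.59 (0.26 ± 0.05, limma adjusted p = 0.024). Tacc1, which encodes a protein that binds nuclear receptors, rose by 0.20 ± 0.05 (limma adjusted p = 0.042). Both calls ended when any array other than Yap HET replicate 2 was left out. Gps2 (-0.17 ± 0.05), a corepressor subunit gene, and Carm1 (-0.14 ± 0.05), a coactivator methyltransferase gene, had adjusted p-values of 0.089 and 0.10. The median of the list was -0.04.

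Among receptors that pair with RXRs, Pparg rose and Nr4a1 fell. Of 13 listed, 9 were tested, 1 was called higher and 1 lower, and the median log2 change was -0.05. Of all tested genes, 5.16% were called higher and 4.76% lower. Pparg encodes a fatty acid receptor of fat cells and macrophages. It read 164, 191 and 147 in Yap HET cells, against 250, 275 and 251 in Yap KO cells. All Yap KO values were higher (0.64 ± 0.10, limma adjusted p = 0.0089). Nr4a1, the gene of the orphan receptor Nur77, read 2163, 2185 and 2194 in Yap HET cells, against 1395, 1591 and 1471 in Yap KO cells (-0.56 ± 0.06, limma adjusted p = 0.0028). Nr4a1 is also an immediate early gene that responds to tissue dissociation, and the part of dissociation was not tested. Ppard, which encodes a fatty acid receptor of many tissues, had 0.26 ± 0.07 (limma adjusted p = 0.055), and Nr4a2, the relative of Nr4a1, -0.22 ± 0.07 (limma adjusted p = 0.082).

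Among genes known to respond to retinoic acid, Rai14 was higher and Egr1 and Nr2f1 were lower. Of 45 listed, 40 had a probe set, 31 were tested, 1 was called higher and 2 lower, with 7 higher and 3 lower when the limma p was left unadjusted (under 0.05). The called counts are near the background of 5.16% higher and 4.76% lower, and the shares of all tested genes by unadjusted p were 13.9% and 14.4%. Rai14, first described as retinoic acid induced and encoding an actin-binding protein, read 256, 304 and 272 in Yap HET cells, against 386, 444 and 527 in Yap KO cells (0.70 ± 0.12, limma adjusted p = 0.012). Egr1, also an immediate early gene, fell from 4223 ± 98.3 to 3492 ± 158 (-0.27 ± 0.05, limma adjusted p = 0.021). Nr2f1, an orphan nuclear receptor gene, had -0.29 ± 0.07 on the log2 scale (limma adjusted p = 0.047). The Nr2f1 call ended whichever array was left out. The Rai14 call ended without Yap HET replicate 1, and the Egr1 call without that array or either of Yap KO replicates 1 and 2. Fgf10, which encodes a growth factor of the second heart field, had 0.32 ± 0.10 (limma adjusted p = 0.080). Of the Hox genes listed, 6 were tested and 0 were called, with log2 changes between -0.07 and 0.06. The list median was -0.03, beside -0.02 for all tested genes.

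**Figure D4:**
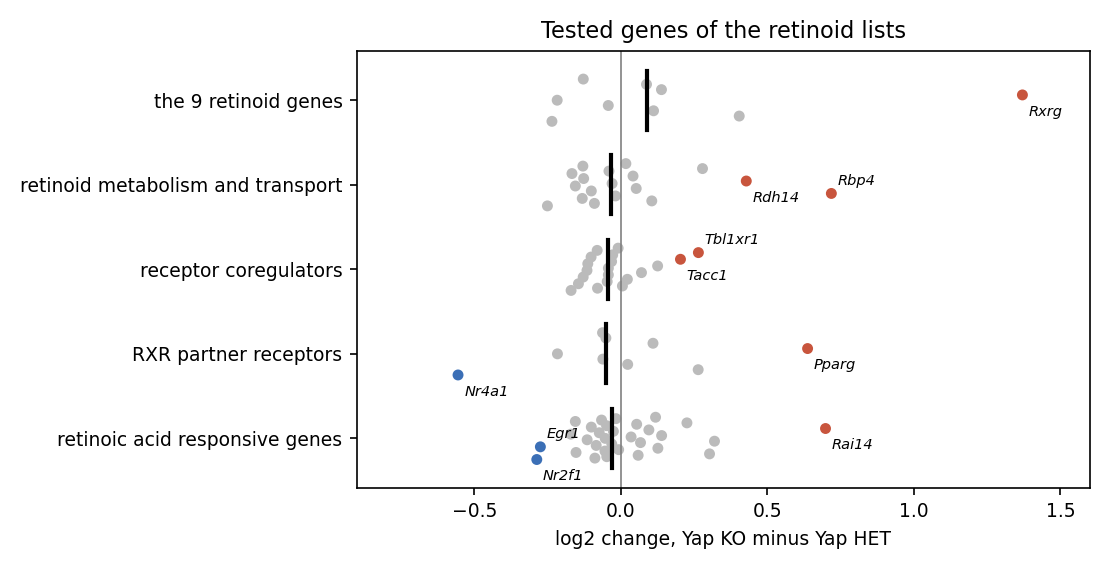
Log2 change (Yap KO minus Yap HET, horizontal axis) of the tested genes in the set of 9 and in 4 lists (rows, with vertical scatter only for legibility), red for called higher, blue for called lower and grey for not called, with a black line at each median. Medians lie between -0.05 and 0.09, and Rxrg at 1.37 is the largest change shown.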

How the data were processed

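Intensities of 35556 probe sets on 6 arrays were deposited by the authors on a linear scale, from 2e-05 to 15701. RMA is named, without a version, per the submitters' processing notes. RMA gives log2 values, and the step back to a linear scale was not stated in the labels. No detection calls were used, and the number of arrays limits the precision.

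Gene names came from the platform annotation (21789 with 1 symbol, 1621 with several and 12146 with none). Symbols were updated by Entrez identifier through a RefSeq table of GRCm38.p6, which matched 21698. The probe set with the highest mean log2 intensity stood for a gene, and genes dimmer than 85.7, the 40th percentile over probe sets, were left out, which kept 13632. Yap KO and Yap HET were compared with limma 3.58.1 in R 4.3.3 on log2 intensity of the values deposited by the authors, with Benjamini-Hochberg adjustment across all tested genes. The script was tested on simulated data.

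The 9 genes and all lists were chosen with earlier results of these data known. Named in every retinoid list were called genes and up to 4 with the smallest p, and in a marker list up to 4 with the smallest p, with calls otherwise given as counts. For likeness, the 4 nearest genes to Rxrg and Aldh1a2 were named. Other names, among them Upk1b, Lrrn4, Bnc1, Hey2, Rdh10, Dhrs3, Stra6, Cyp26a1, Cyp26b1 and the Hox genes, were picked with their values in view. The erythroid list had 0 calls by limma among 5 tested. The 2 that were higher at an unadjusted limma p under 0.05 were Tfrc (log2 change 0.23) and Hbb-y.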

Additional observations from a re-analysis of the deposited data

How the results depend on the processing

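Of 140 recomputed log2 changes of the 9 genes, 128 kept direction and side of the threshold, 9 gained a call, 1 lost it and 2 turned sign. The calls gained were Rxra in 5 settings, Aldh1a1 in 2, and Rarb and Crabp2 in 1 each. Leaving out 1 array moved Aldh1a2 between -0.32 and 0.13, with its sign turned for Yap HET replicate 2 (0.03) and Yap KO replicate 2 (0.13). Crabp2 and, on the Yap HET side, Rxrg lie near the filter level of 85.7, which limits what their changes can show.

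Over all genes the counts of 704 higher and 649 lower became 271 and 237 with no filter on dim genes, 1189 and 1057 with a trended and robust prior, 2038 and 2579 with array weights, and 94 and 137 in an unmoderated linear model. With the replicate number as a block they were 395 and 303. The correlations of same-numbered arrays were -0.08, -0.17 and 0.12, so the numbers are not taken to pair the arrays, and Rxrg was called with the block. Leaving out 1 array gave 214 to 783 higher and 206 to 597 lower, the fewest higher without Yap KO replicate 2 (214 and 219) and the fewest lower without Yap HET replicate 1 (228 and 206). The causes of these shifts were not tested. Called genes were higher in 52.0% of cases, against 44.1% with array weights and 40.7% in the unmoderated model.

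For the 9 genes, the count higher was 0 with the 60th percentile filter, 3 with array weights and 0 unmoderated. The count lower was 1 with quantile normalization, median centring, cyclic loess and the trended prior, and 2 with array weights. Leaving out 1 array gave 1 to 2 higher and 0 lower.

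For coregulators, 0 were higher with no filter, with the block and unmoderated. The count lower was 1 with the 60th percentile filter, median centring and cyclic loess, 2 with quantile normalization and the trended prior, and 3 with array weights. Fits without 1 array gave 0 to 2 higher and 0 lower.

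For responsive genes, 2 were higher with the 60th percentile filter, quantile normalization, cyclic loess and the block, 3 with the trended prior, 6 with array weights and 0 unmoderated. The count lower was 1 with quantile normalization, median centring and cyclic loess, 4 with array weights, and 0 with no filter, the block and unmoderated. Leaving out 1 array gave 0 to 2 higher and 0 to 1 lower.

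For metabolism and transport, 1 was higher with no filter and with the 60th percentile filter, and 0 unmoderated, with 3 lower under array weights. Leaving out 1 array gave 1 to 2 higher and 0 lower. For RXR partners, 2 were higher with quantile normalization, median centring, cyclic loess and the trended prior, 3 with array weights and 0 unmoderated. The count lower was 2 with the 60th percentile filter and 4 with array weights. Without 1 array there were 1 to 2 higher and 1 lower.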
